A study of Saccharomyces cerevisiae with 12 samples.

Results

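The 8 genes of GMP synthesis and purine salvage described here were measured in yeast cells that lack a 14-3-3 protein and were starved of potassium. They were chosen by name, with earlier results of these data known. The same holds for the gene lists further on, so shares of members or listed genes set beside all genes are descriptions. The members are the IMP dehydrogenase genes IMD2, IMD3 and IMD4, the GMP synthase gene GUA1, the salvage genes HPT1, APT1 and AAH1, and the purine permease gene FCY2. Of these 8 genes, 7 had a row among the 6053 genes of the table and 6 had enough tags to be tested.

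In yeast, GMP is made from IMP in 2 steps. IMP dehydrogenase oxidises IMP to XMP, and this is the rate-limiting step of guanine nucleotide synthesis. GMP synthase, encoded by GUA1, then turns XMP into GMP. Salvage makes nucleotides from ready-made bases. Hpt1 attaches phosphoribosyl pyrophosphate (PRPP) to hypoxanthine or guanine, Apt1 does so with adenine, Aah1 deaminates adenine to hypoxanthine, and the permease Fcy2 brings adenine, guanine, hypoxanthine and cytosine into the cell.

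SAGE-tag sequencing was used to measure RNA in 4 groups of 3 libraries. The groups were bmh2∆ cells kept for 60 min at 30 °C in medium with 0 mM KCl, bmh2∆ cells kept in the same way with 50 mM KCl, bmh1∆ cells with 0 mM KCl and bmh1∆ cells with 50 mM KCl. Both strains were made in BY4741, a MATa strain with the alleles his3Δ1, leu2Δ0, met15Δ0 and ura3Δ0, and a loxP site remains where BMH2 or BMH1 was removed. BY4741 libraries were not used here. Levels are given in RPM, that is, reads of a gene scaled to a library total of 1000000. Each library came from a whole culture, so fewer expressing cells and less RNA per cell cannot be told apart.

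All bmh2∆ libraries are named by a letter and the KCl concentration (C0, D0, E0, C50, D50 and E50). The bmh1∆ libraries are named in different ways, and no source used here states what the naming stands for. B0 and B50 are named by letter, while GTCACG and TGCACT at 0 mM KCl and CTATAG and GGATAT at 50 mM KCl are named by lane 1 and an index. Taking the smallest step between values as 1 read, the libraries held between 6237952 and 107579363 reads. B0 and GTCACG were the deepest, with 107579363 and 73863623 reads, against at most 19334173 in any other library. Only 0 (B0) and 1 (GTCACG) of the 6053 genes had fewer steps than the remaining libraries of that naming had together, so B0 and GTCACG may hold reads of other libraries. BMH2 was at most 0.291 RPM in bmh2∆ and between 197 and 505 RPM in bmh1∆. BMH1 was between 4048 and 5391 RPM in bmh2∆ and still between 536 and 4170 RPM in bmh1∆, so its tag does not check the deletion. The a-cell genes MFA1, STE2, BAR1, AGA2 and MFA2 were found in every library, with STE2, the receptor of alpha-factor, between 486 and 1772 RPM. The alpha-cell genes STE3, MF(ALPHA)1 and MF(ALPHA)2 were at most 6.09 RPM, while SAG1 was between 8.21 and 63.7 RPM. URA3 was at most 0.328 RPM, and HIS3 was between 2.21 and 25.2 RPM.

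A SAGE tag is the CATG at which NlaIII cuts the cDNA, with the 17 bases that follow it, normally from the CATG nearest to the poly(A) tail. The tag therefore decides which of these genes can be seen. Positions are those of the S288C reference, build R64. It is not known whether the authors matched tags to the same build. The 3 IMP dehydrogenase genes and a copy of IMD2 on chromosome I hold their last CATG at the same place, at -303 bases counted from the last base of the stop codon. These 4 tags are shown because only a few bases tell the family members apart. Capitals mark bases that differ from IMD3.
IMD3, chrXII:1003825-1003845, plus strand: catgcaaaagactggtactaa
IMD2, chrVIII:555664-555684, plus strand: catgcaaaagactggtacCaa
Copy on chromosome I, chrI:229014-229034, plus strand: catgcaaaagactggtacCaa
IMD4, chrXIII:162477-162497, minus strand: catgcaaaagacCggtaACaa

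Counted from 1 at the C of CATG, IMD2 differs from IMD3 by T19C, and IMD4 differs from IMD3 by T13C, C18A and T19C. The tag of IMD2 is identical to that of the copy on chromosome I and so occurs at 2 places in the genome, whereas those of IMD3 and IMD4 occur at 1 place. Over the whole gene, IMD2 is 96.6% identical to the copy (chrI:227742-229317), 88.9% identical to IMD3 and 79.8% identical to IMD4, and IMD3 is 82.7% identical to IMD4. The rows IMD1 (YAR073W) and YAR075W of the table are named for this copy. Of the CATG tags within IMD2, 1 of 6 occurs only there. In IMD3 this holds for 2 of 5 tags and in IMD4 for 5 of 7. IMD2 (YHR216W) lies at chrVIII:554396-555967, IMD3 (YLR432W) at chrXII:1002557-1004128 and IMD4 (YML056C, 2 exons) at chrXIII:162194-164176.

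The other members have tags found at 1 place each in the genome. They are shown with CATG in capitals, each at the last CATG within the coding sequence.
GUA1, chrXIII:703229-703249, plus strand: CATGactgctgactggttccc
HPT1, chrIV:1270642-1270662, plus strand: CATGggaatctactgacattg
AAH1, chrXIV:360566-360586, plus strand: CATGgtgtgacgataaaagaa
FCY2, chrV:266772-266792, minus strand: CATGttcagaacatttcttct

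The tag of HPT1 (YDR399W, chrIV:1270068-1270733) is the only one its coding sequence can give, at -91 bases. GUA1 (YMR217W) lies at chrXIII:701790-703367 and AAH1 (YNL141W) at chrXIV:359596-360639. FCY2 (YER056C, chrV:266512-268113) has further CATG sites 45 and 66 bases after the stop codon, and IMD4 has such sites 223 and 229 bases after it, within CMP2. Which site gave the tags of a row is not given in the sources used here. APT1 (YML022W, chrXIII:228937-229500) holds no CATG in its coding sequence or in the 300 bases that follow. The same is true of 209 of 6002 nuclear protein-coding genes (3.48%), and none of these 209 genes had a row in the table, against 5493 of all 6002. APT1 was therefore not measured.

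**Figure D1:**
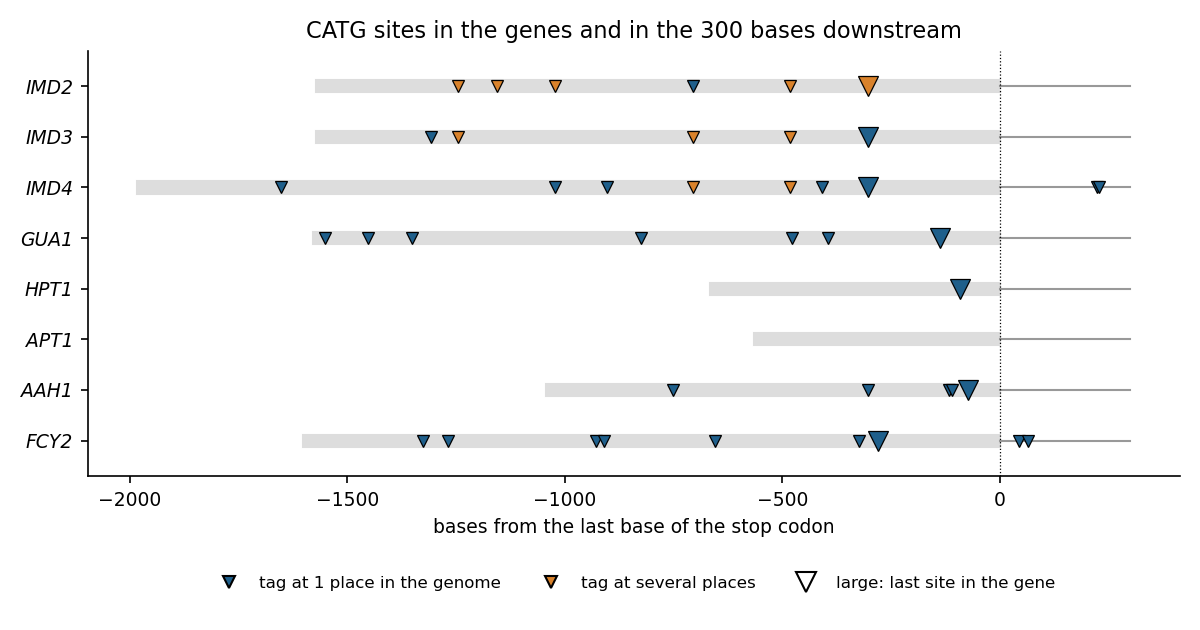
Positions of CATG sites in the 8 genes (grey bars, from start to stop codon, introns included) and in the 300 bases downstream (thin lines); the horizontal axis is the distance in bases from the last base of the stop codon, the colour gives whether the tag occurs at 1 place in the genome, and large symbols are the last site in a gene. APT1 has no site, HPT1 has 1, and the last sites of IMD2, IMD3 and IMD4 lie at the same distance of -303 bases.

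The first question was which of these genes changed in bmh2∆ cells on potassium starvation. The test was passed by 3 members, all of them lower at 0 mM than at 50 mM KCl. They were HPT1, IMD3 and FCY2, at 18.1%, 26.2% and 31.2% of their mean level at 50 mM KCl. This is 3 of the 6 tested members, and of all 5278 tested genes 2.63% passed as lower in this comparison and 5.53% in either direction (limma, adjusted p under 0.05). The libraries did not overlap for these 3 genes and for IMD4, all lower at 0 mM, and this was so for 20.5% of all tested genes. For each of these 4 genes the exact two-sided permutation test gave p = 0.1, the smallest value that 3 against 3 libraries allow. The median log2 difference over the 6 tested members was -1.34, against 0.05 over all tested genes.

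**Figure D2:**
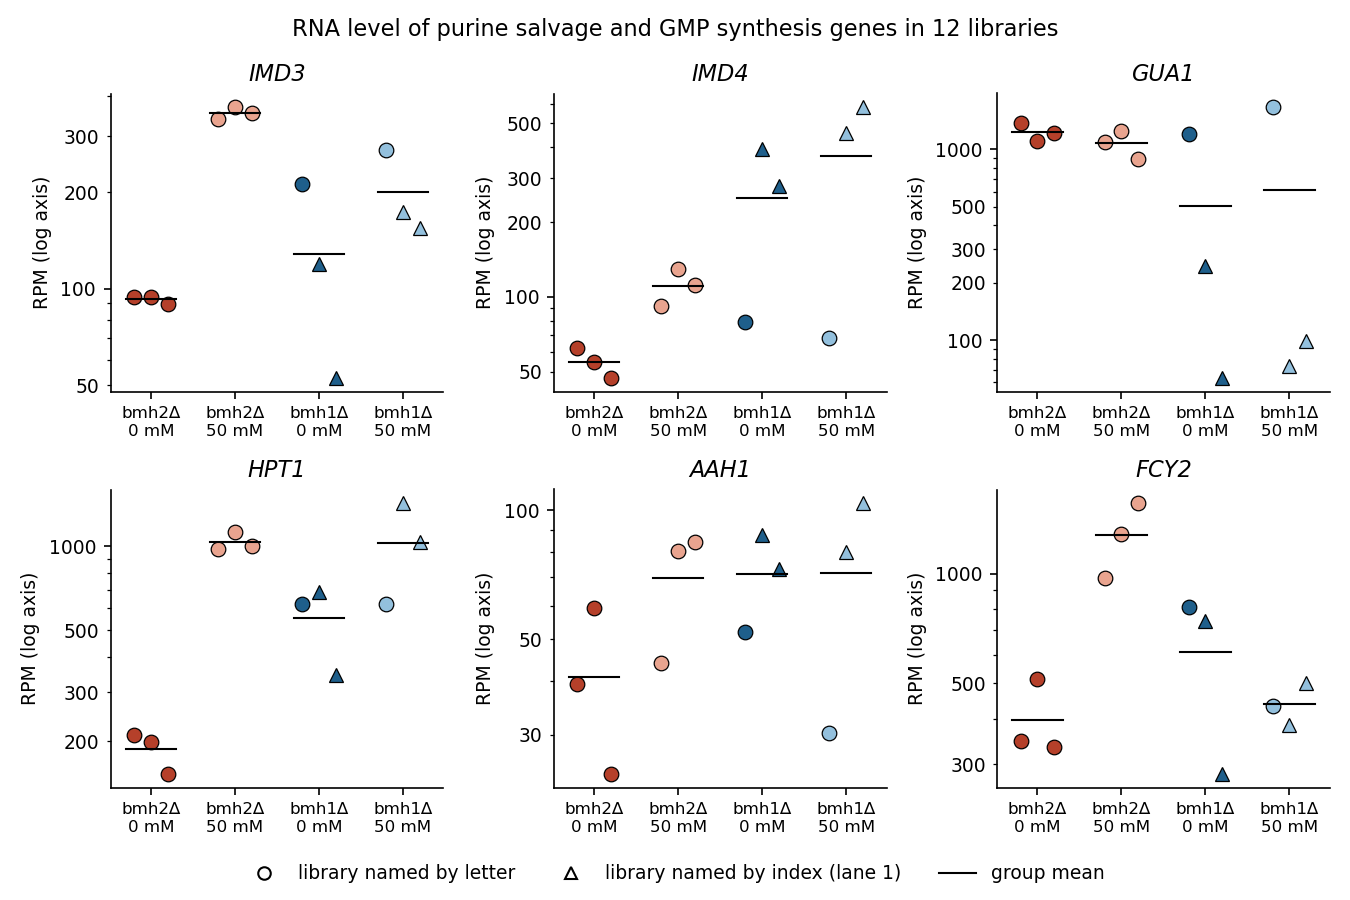
RNA level of the 6 tested members in each library, in RPM on a logarithmic axis, by strain and KCl concentration; circles are libraries named by letter, triangles are libraries named by index, and lines are group means (n = 3). In bmh2∆ the libraries at 0 mM KCl lie below all those at 50 mM for IMD3, IMD4, HPT1 and FCY2, while in bmh1∆ the circles and triangles separate for IMD3, IMD4, GUA1 and AAH1.

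IMD3, one of the IMP dehydrogenase genes, was at 94.3, 94.4 and 89.7 RPM in bmh2∆ at 0 mM KCl (C0, D0 and E0), against 338, 369 and 355 RPM at 50 mM KCl (C50, D50 and E50). The libraries within each group were close together, with an SD of log2(RPM + 1) of 0.04 at 0 mM and 0.06 at 50 mM KCl, where the median over tested genes was 0.32 and 0.24. IMD3 fell by 1.92 on the log2(RPM + 1) scale (SE 0.43, 95% confidence interval between -2.87 and -0.97, limma adjusted p = 0.028). The pooled spread of the fit, which includes the bmh1∆ libraries, sets this error. Leaving out any single bmh2∆ library moved the adjusted p of IMD3 to between 0.075 and 0.110, with a log2 difference between -1.95 and -1.89. Over all 23 alternatives the adjusted p was between 1.96e-04 and 0.110.

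IMD4, which also encodes an IMP dehydrogenase, was at 62.5, 54.8 and 47.1 RPM in bmh2∆ at 0 mM KCl, against 92.1, 129 and 112 RPM at 50 mM KCl. All libraries at 0 mM lay below those at 50 mM KCl. The log2 difference of -1.0 did not pass the test (SE 0.76, adjusted p = 0.557), with an interval between -2.66 and 0.66. Its spread between bmh1∆ libraries, given further on, enters this error. When only the groups compared were fitted the adjusted p was 0.0108, and it was 0.0179 with the library naming as a term. In these settings 1263 and 1062 of all 5278 tested genes passed, against 292 in the main fit. The highest adjusted p of IMD4 over all 23 alternatives was 0.826.

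IMD2, the member of the family that is induced when guanine nucleotides run short, had a row with 0 RPM in all 6 bmh2∆ libraries. A count of 0 allows up to between 0.218 and 0.290 RPM in these libraries if 1 step is 1 read. In bmh1∆ it was at 0.0186, 0.298 and 0 RPM at 0 mM KCl (B0, GTCACG and TGCACT) and at 0, 0.410 and 0.362 RPM at 50 mM KCl (B50, CTATAG and GGATAT). It was not tested. These values do not show that IMD2 RNA was absent, because its tag is also that of the copy on chromosome I.

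The rows of that copy did hold tags. IMD1 was at 4.43, 6.17 and 5.58 RPM in bmh2∆ at 0 mM KCl, against 20.9, 30.9 and 17.0 RPM at 50 mM KCl. YAR075W, which matches the 3′ part of IMD2, was at 13.6, 16.2 and 13.5 RPM at 0 mM KCl, against 72.2, 49.8 and 62.9 RPM at 50 mM KCl. Both were lower at 0 mM without overlap and passed the test, by -1.87 for IMD1 (SE 0.41, adjusted p = 0.024) and by -2.01 for YAR075W (SE 0.50, adjusted p = 0.042) on the log2 scale. With any single bmh2∆ library left out the adjusted p was between 0.0593 and 0.115 for IMD1 and between 0.0942 and 0.150 for YAR075W. YAR075W passed under 12 of 23 alternatives, and its adjusted p was 0.0508 with quantile normalization and 0.0503 with median-of-ratios scaling. Some CATG tags of the copy also occur in IMD3 or IMD4, and which site gave the tags of these rows is not known. From which locus the tags came, IMD2, the copy, IMD3 or IMD4, cannot be told apart.

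Summed over IMD1, YAR075W, IMD2, IMD3 and IMD4, the family had 175, 172 and 156 RPM in bmh2∆ at 0 mM KCl, against 524, 579 and 546 RPM at 50 mM KCl. The means were 167 ± 10.2 RPM and 549.7 ± 28.0 RPM (SD, n = 3 each). The sum at 0 mM was 30.5% of that at 50 mM KCl and the groups did not overlap. The ratio of IMD4 to IMD3 was 0.663, 0.581 and 0.525 in bmh2∆ at 0 mM KCl, against 0.272, 0.349 and 0.314 at 50 mM KCl. This ratio was not tested.

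**Figure D3:**
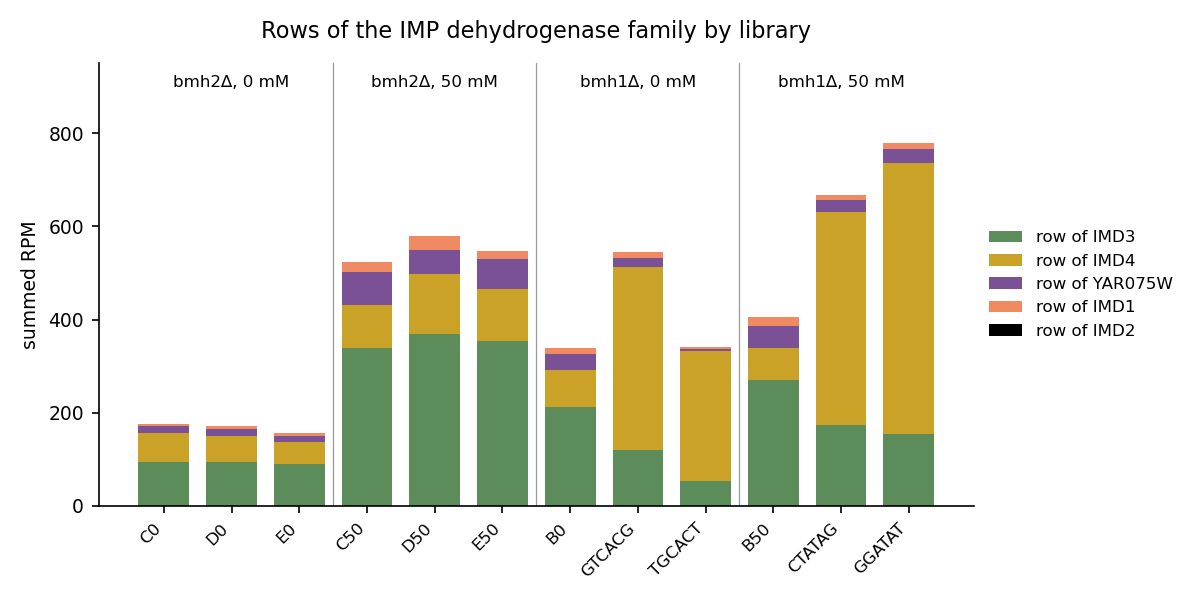
Summed level of the rows of the IMP dehydrogenase family in each library, in RPM, stacked by row; vertical lines separate the 4 groups. In bmh2∆ the sums lie between 156 and 175 RPM at 0 mM KCl and between 524 and 579 RPM at 50 mM KCl, and in bmh1∆ IMD4 makes up most of the sum in the 4 index libraries but not in B0 and B50.

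GUA1 encodes the enzyme of the next step. It was at 1372, 1107 and 1214 RPM in bmh2∆ at 0 mM KCl, against 1101, 1256 and 895 RPM at 50 mM KCl, and the groups overlapped. The log2 difference was 0.19 with a wide interval, between -2.35 and 2.73 (SE 1.16, adjusted p = 0.969). Over the 23 alternatives it was between 0.06 and 0.30, and the lowest adjusted p was 0.540. The ratio of GUA1 to the summed IMP dehydrogenase family was 7.85, 6.45 and 7.79 in bmh2∆ at 0 mM KCl, against 2.10, 2.17 and 1.64 at 50 mM KCl. The groups did not overlap in this ratio, which was not tested.

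HPT1, the hypoxanthine-guanine phosphoribosyltransferase, had the smallest p of the members. It was at 211, 199 and 153 RPM in bmh2∆ at 0 mM KCl, against 975, 1127 and 1000.3 RPM at 50 mM KCl. The means were 187 ± 30.7 RPM and 1034 ± 81.5 RPM (SD, n = 3 each), far apart compared with the spread within either group. HPT1 fell by 2.47 on the log2(RPM + 1) scale (SE 0.36, interval between -3.27 and -1.67, adjusted p = 0.00594) and ranked 25 of the 5278 tested genes by p. It passed under each of 23 alternatives, with a log2 difference between -2.56 and -2.33 and an adjusted p of at most 0.0409.

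AAH1, the adenine deaminase, was at 39.4, 59.1 and 24.2 RPM in bmh2∆ at 0 mM KCl, against 44.2, 80.4 and 84.6 RPM at 50 mM KCl. The groups overlapped, through D0 and C50. The log2 difference was -0.79 (SE 0.49, interval between -1.87 and 0.29, adjusted p = 0.453).

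FCY2, the purine and cytosine permease, was at 347, 513 and 334 RPM in bmh2∆ at 0 mM KCl, against 975, 1287 and 1561 RPM at 50 mM KCl. The highest library at 0 mM was well below the lowest at 50 mM KCl. FCY2 fell by 1.68 on the log2 scale (SE 0.41, interval between -2.57 and -0.79, adjusted p = 0.037). With any single bmh2∆ library left out the adjusted p was between 0.0605 and 0.160, without GGATAT it was 0.0517, and with quantile normalization it was 0.0513. The log2 difference under all 23 alternatives was between -1.87 and -1.52.

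In bmh2∆, D0 and E0 were sequenced in lane 6, while C0 was in lane 5 with all libraries at 50 mM KCl. Within lane 5, C0 was below the 3 libraries at 50 mM KCl by a log2 difference of -2.29 for HPT1, -1.90 for IMD3, -1.85 for FCY2 and -0.80 for IMD4. With a single library at 0 mM KCl these values have no test.

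In bmh1∆ cells none of the 6 tested members passed the test on starvation. Of all tested genes 0.966% passed, all of them higher at 0 mM KCl, and 11.7% had an unadjusted p under 0.05, among them HPT1. No member was free of overlap between the groups, where 12.6% of all tested genes were. B0 and GTCACG, both at 0 mM KCl, may hold reads of other libraries, among them libraries at 50 mM KCl. Whether this affects the bmh1∆ differences was not tested, and values without B0 and GTCACG are given further on. HPT1 was at 621, 686 and 347 RPM in bmh1∆ at 0 mM KCl (B0, GTCACG and TGCACT), against 622, 1429 and 1034 RPM at 50 mM KCl (B50, CTATAG and GGATAT). The log2 difference was -0.88 (SE 0.36, unadjusted p = 0.035, limma adjusted p = 0.358). IMD3 was at 213, 120 and 52.5 RPM at 0 mM KCl, against 271, 174 and 155 RPM at 50 mM KCl, a log2 difference of -0.81 (SE 0.43, adjusted p = 0.533). For IMD3 the libraries at 0 mM KCl were below those at 50 mM within each naming, and for HPT1 this held in the index libraries, while B0 and B50 were nearly equal.

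FCY2 was at 810, 742 and 282 RPM in bmh1∆ at 0 mM KCl, against 434, 386 and 501 RPM at 50 mM KCl, so that 2 libraries were above and 1 was below all those at 50 mM. Its log2 difference was 0.34 (SE 0.41, adjusted p = 0.841). AAH1 was at 52.0, 87.8 and 73.0 RPM at 0 mM KCl, against 30.3, 80.0 and 104 RPM at 50 mM KCl, a log2 difference of 0.13 (adjusted p = 0.973). The range at 0 mM KCl lay within that at 50 mM KCl.

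IMD4 and GUA1 varied far more between bmh1∆ libraries than with KCl. IMD4 was at 79.1, 393 and 279 RPM in bmh1∆ at 0 mM KCl, against 68.1, 457 and 582 RPM at 50 mM KCl. GUA1 was at 1207, 244 and 63.1 RPM at 0 mM KCl, against 1669, 73.1 and 99.2 RPM at 50 mM KCl. The libraries named by letter, B0 and B50, were low in IMD4 and high in GUA1, as were all bmh2∆ libraries. The 4 libraries named by index were high in IMD4, between 279 and 582 RPM, and low in GUA1, between 63.1 and 244 RPM. IMD3 and AAH1 did not overlap between the index and letter libraries of bmh1∆ either, whereas HPT1 and FCY2 did. Over all tested genes, 58% did not overlap between these 4 index and 2 letter libraries. The ratio of IMD4 to IMD3 was 3.28 and 5.31 in GTCACG and TGCACT and 2.63 and 3.75 in CTATAG and GGATAT, but 0.372 in B0 and 0.251 in B50. What the naming stands for and its part in the bmh1∆ values were not tested apart from the fit with the naming as a term.

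Within the index libraries, with 2 libraries at each KCl concentration, the log2 difference on starvation in bmh1∆ was -1.31 for HPT1, -1.04 for IMD3, -0.64 for IMD4, 0.54 for GUA1, -0.19 for AAH1 and 0.06 for FCY2. Within the letter libraries, B0 against B50, it was -0.0032 for HPT1, -0.35 for IMD3, 0.21 for IMD4, -0.47 for GUA1, 0.76 for AAH1 and 0.90 for FCY2. Thus IMD3, HPT1 and FCY2 had the same sign within both namings, and for HPT1 B0 and B50 were at almost the same level. B0 and GTCACG may hold reads of other libraries, which limits the comparison within either naming. With the naming as a term no member passed in bmh1∆.

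With B0 and GTCACG left out, bmh1∆ at 0 mM KCl is represented by the library TGCACT alone, which is assumed to vary like the other libraries. The log2 difference of IMD3 was then -1.87, that of HPT1 was -1.48, that of FCY2 was -0.63 and that of GUA1 was -1.85. With a single library at 0 mM KCl only these effect sizes are given.

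**Figure D4:**
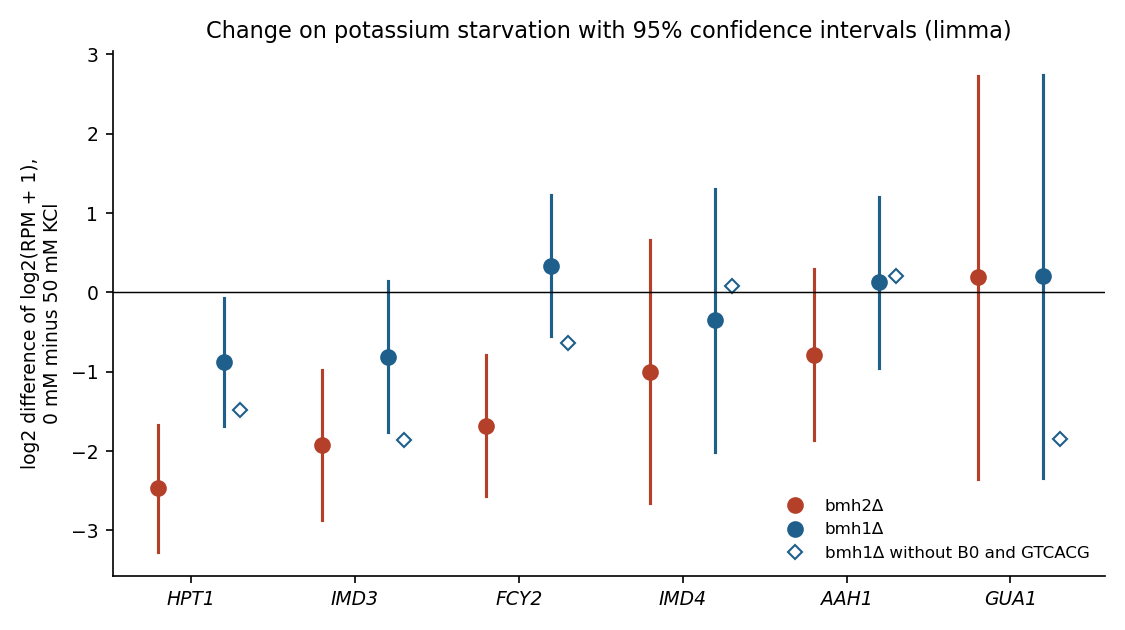
Difference between 0 and 50 mM KCl in bmh2∆ (red) and bmh1∆ (blue) on the log2(RPM + 1) scale, with 95% confidence intervals from limma (n = 3 libraries in each group); open symbols give bmh1∆ without B0 and GTCACG. The intervals of HPT1, IMD3 and FCY2 in bmh2∆ lie below 0, and in bmh1∆ FCY2, IMD4 and GUA1 change sign without those libraries.

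Whether the response differed between the strains was tested as an interaction. No gene of the 5278 passed (0.00%), while 3.20% had an unadjusted p under 0.05. Of the members FCY2 had the largest difference, with -1.68 in bmh2∆ and 0.34 in bmh1∆, that is, -2.02 between the strains (SE 0.57, unadjusted p = 0.0047, limma adjusted p = 0.993, rank 10 by p). For HPT1 the difference was -1.59 (unadjusted p = 0.010, adjusted p = 0.993) and for IMD3 it was -1.11 (adjusted p = 0.993). Without B0 and GTCACG, which leaves TGCACT alone for bmh1∆ at 0 mM KCl, the differences were smaller. They were then -1.04 for FCY2, -0.99 for HPT1 and -0.055 for IMD3. A different response was therefore not shown for any member.

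Between the strains at a given KCl concentration no member passed the test. At 50 mM KCl 0.0568% of tested genes passed and 16.6% had an unadjusted p under 0.05, with FCY2 the only member among them. FCY2 was at 975, 1287 and 1561 RPM in bmh2∆ and at 434, 386 and 501 RPM in bmh1∆, without overlap, and its log2 difference was 1.51 (SE 0.41, adjusted p = 0.175). IMD3 was also higher in bmh2∆ without overlap, with a log2 difference of 0.86 (adjusted p = 0.332). Non-overlap with higher values in bmh2∆ was found for 10.7% of all tested genes. Against B50 alone, the bmh1∆ library named by letter, the log2 difference was 1.52 for FCY2 and 0.38 for IMD3. When B50 was left out, bmh1∆ at 50 mM KCl was represented by index libraries alone, and 3 members passed: GUA1 with 3.64 (adjusted p = 0.017), IMD4 with -2.22 (adjusted p = 0.017) and FCY2 with 1.51 (adjusted p = 0.031). In that setting 1342 of the 5278 tested genes passed, against 3 with all libraries. Over all 22 alternatives the adjusted p reached 0.720, 0.776 and 0.582 for these genes.

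At 0 mM KCl 0.0189% of tested genes passed, and 11.5% had an unadjusted p under 0.05, among them HPT1 and IMD4. HPT1 was at 211, 199 and 153 RPM in bmh2∆ and at 621, 686 and 347 RPM in bmh1∆, a log2 difference of -1.51 (SE 0.36, adjusted p = 0.395). IMD4 was lower by a log2 difference of -1.90 (SE 0.76, adjusted p = 0.395). Both were lower in bmh2∆ without overlap, as were 11.8% of all tested genes. Against B0 alone the log2 difference was -1.74 for HPT1 and -0.53 for IMD4. B0 may hold reads of other libraries named by letter, which are bmh2∆ apart from B50, so it is not a clean bmh1∆ reference. GUA1 had a log2 difference of 2.20 between the strains at 0 mM KCl, which was -0.31 with the naming as a term. The same term changed the log2 difference of IMD4 from -1.90 to -0.25.

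The branch that makes IMP, the common precursor of GMP and AMP, was considered next. All 10 ADE genes of IMP and AMP synthesis had a lower fitted level in bmh2∆ at 0 mM than at 50 mM KCl, with a median log2 difference of -1.53, where 46.7% of all tested genes were below 0. The smallest difference was that of ADE16, which was nearly unchanged (-0.15, limma adjusted p = 0.882). Of the 10, 3 passed, all as lower, where 2.63% of all tested genes passed as lower. ADE17, which encodes an enzyme of the last steps to IMP, fell by 2.05 (adjusted p = 0.017). ADE8, the glycinamide ribotide transformylase, fell by 2.48 (adjusted p = 0.020), and ADE5,7, a bifunctional enzyme of IMP synthesis, fell by 1.84 (adjusted p = 0.030). ADE17 was at 355 ± 15.3 RPM at 0 mM KCl and 1478 ± 198 RPM at 50 mM KCl (SD, n = 3 each). Without 1 of the bmh2∆ libraries, the adjusted p of these 3 genes reached 0.0803, 0.0935 and 0.123. In bmh1∆ none of the 10 passed, where 0.966% of all tested genes did. Their median was -0.68, against 0.14 over all tested genes.

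Few genes of the other nucleotide lists passed in bmh2∆, where 5.53% of all tested genes passed in either direction. Of 11 tested genes of other purine salvage and interconversion none passed, with a median log2 difference of -0.16 and a range between -0.97 and 2.03. None of 6 further genes listed under nucleobase and nucleoside uptake passed (median 0.51), though not all of them encode transporters. Nor did any of 5 genes of PRPP synthesis (median 0.08) or 3 regulators of purine genes (median 0.26). DST1 (0.39) and SDT1 (-0.90), listed under guanine nucleotide depletion, did not pass either, and 2 genes do not measure such a response. In uracil synthesis 1 of 8 genes passed. It was URA1, the dihydroorotate dehydrogenase, which rose by 1.44 (adjusted p = 0.049) to 915 ± 177 RPM at 0 mM KCl, against 336 ± 65.4 RPM at 50 mM KCl (SD, n = 3 each). It passed under 13 of 23 alternatives. Its adjusted p was 0.0523 without a filter, 0.0510 with the filter of 10 RPM and up to 0.195 without 1 bmh2∆ library. In bmh1∆ the one gene of these lists that passed was FUR4, the uracil permease, at 62.0 ± 19.5 RPM at 0 mM KCl, against 17.5 ± 8.32 RPM at 50 mM KCl (log2 difference 1.80, adjusted p = 0.047). FUR4 passed under 6 of 22 alternatives, with an adjusted p of up to 0.515.

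**Figure D5:**
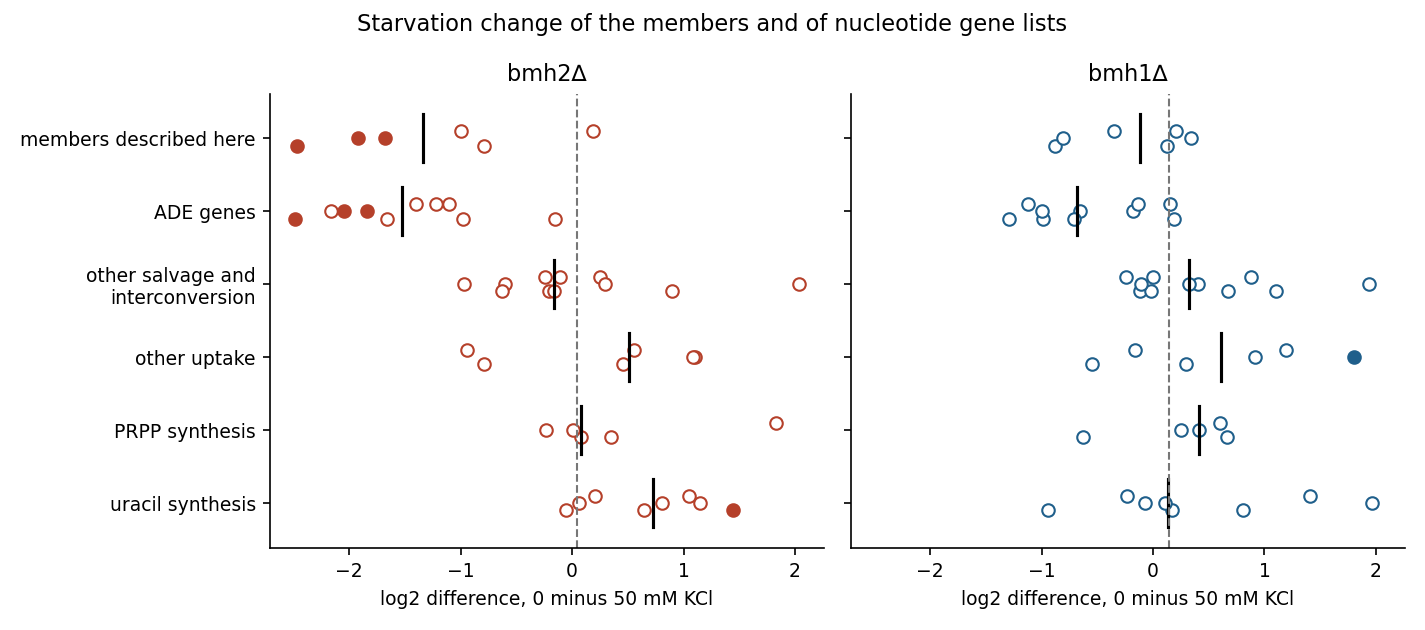
Log2 difference between 0 and 50 mM KCl for each tested gene of the 6 members and of 5 nucleotide gene lists, in bmh2∆ (left) and bmh1∆ (right); filled circles passed the test (limma, adjusted p under 0.05), black bars are list medians, and dashed lines are the median of all tested genes. In bmh2∆ the members and the ADE genes have medians of -1.34 and -1.53, while the other lists lie between -0.16 and 0.73.

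The sequence TGACTC, the core of the sites to which Bas1 and Gcn4 bind, was looked for on both strands between 250 bases before and 50 bases after the first base of the start codon. It was found in 479 of 6001 genes (7.98%) and in 1 of the 8 members, APT1. It was not found in this window of HPT1, IMD3 or FCY2. Only exact matches were counted, and whether Bas1 or Gcn4 acts on any of these genes was not tested.

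To see which members varied alike, the root mean square (RMS) difference of centred log2(RPM + 1) values over the 12 libraries was computed. Among the members IMD3 and FCY2 were closest (0.527), followed by IMD3 and HPT1 (0.728), and IMD4 and GUA1 were farthest apart (2.89). Of all tested genes those nearest to IMD3 were SPC97 (0.182), YAR075W (0.194) and BNR1 (0.257), where the median distance to all tested genes was 1.11. The nearest genes to HPT1 were GCV2 (0.269), which encodes a subunit of glycine decarboxylase, RAP1 (0.273) and YJL118W (0.296). Those nearest to FCY2 were ASN1 (0.259), SER1 (0.271) and CHA1 (0.282), which encode enzymes of asparagine and serine synthesis and of serine breakdown. For GUA1 they were YHR045W, RNR4 and RPS16A (0.253 to 0.290), for IMD4 they were DSE4, KIN4 and YLR046C (0.197 to 0.264), and for AAH1 they were ADD66, CLB3 and GUP2 (0.164 to 0.183). These distances include the difference between the index and letter libraries of bmh1∆ and are descriptions without a test.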

How the data were processed

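The deposited table holds RPM values of the authors for 6053 genes in 12 libraries, and each library sums to 1000000. Per the file headers, tags were counted by gene after trimming. Software, build and annotation were not given in the sources used here. All values are whole multiples, within 0.01 step, of the smallest value divided by 2, but as this does not establish read counts, no count model was used. Log2(RPM + 1) values of the 5278 genes with at least 3 RPM in 3 libraries were fitted with limma 3.58.1 in R 4.3.3 (1 mean for each group, trend and robust options, two-sided, Benjamini-Hochberg, adjusted p under 0.05). Fold changes on this scale understate those of low genes. No source states that libraries of a group are separate cultures, so p values measure the spread between libraries. Tags and distances were read from R64 with Biopython 1.88 (Python 3.11.15, NumPy 2.4.6, pandas 2.3.3, matplotlib 3.10.9). The limma script was tested on simulated data. The genes named are the members, up to 4 genes that passed from each list, the 3 nearest genes to each member, genes that check the strains, and IMD1. Members and lists were chosen with earlier results of these data known. Alternatives were the pseudocount (0.5 or 5 RPM), the filter (none, or 10 RPM), the scaling, the fit and its samples, the library naming (letter or index) as a term, a block by letter, and leaving out libraries. Per the paper, an overnight culture was used to inoculate the cultures for both KCl concentrations. Whether a letter stands for such a pair is not stated. The correlation of deviations between libraries of the same letter was 0.07, 0.25 and -0.29. Between different letters it ranged from -0.60 to 0.53. With 3 libraries in each group these values cannot decide the pairing.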

Additional observations from a re-analysis of the deposited data

How the results depend on the processing

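The number of members that passed for starvation in bmh2∆ was 3 and ranged between 1 and 3 when a library was left out. It was 1, HPT1, when any single bmh2∆ library was left out. In a replicate block by letter 4 members passed (IMD4 with a limma adjusted p of 0.0175), and 1254 of all genes against 292. Whether the letters pair the libraries is not known. The number for bmh1∆ was 0 in every setting apart from the fit without B0 and GTCACG. That fit leaves a single bmh1∆ library at 0 mM KCl and is used for effect sizes only. Between the strains at 50 mM KCl it was between 0 and 3 when a library was left out, with 3 only without B50, where 1342 of the 5278 tested genes passed, against 3 with all libraries. The cause was not tested. The number of all genes that passed for starvation in bmh2∆ lay between 28 (without C0) and 1263 (only the groups compared), and for bmh1∆ between 2 and 460.

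Values that changed sign did not pass in either setting. For starvation in bmh1∆ these were AAH1 with median-of-ratios scaling (-0.055), and IMD4 (0.085), GUA1 (-1.85) and FCY2 (-0.63) without B0 and GTCACG. When a library was left out IMD4 ranged between -1.32 and 0.33, GUA1 between -0.89 and 1.63 and AAH1 between -0.39 and 0.48. For the difference between the strains in the response, GUA1 was 0.074 with quantile normalization, 0.16 with median-of-ratios scaling and 2.04 without B0 and GTCACG, and when a library was left out GUA1 ranged between -1.44 and 1.08 and IMD4 between -1.33 and 0.32. Between the strains at 50 mM KCl the library naming as a term gave 0.40 for IMD4 and -0.30 for GUA1, and when a library was left out AAH1 ranged between -0.44 and 0.43 and HPT1 between -0.24 and 0.36. At 0 mM KCl the naming as a term gave -0.31 for GUA1, leaving out B0 and GTCACG gave 0.81 for IMD3 and 0.47 for FCY2, and IMD3 ranged between -0.78 and 0.22 when a library was left out. Where 1 step is 1 read, the shallowest library, B50, resolves 0.160 RPM.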
